A study of Mus musculus with 12 samples.

Results

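MC3T3-E1 subclone 14 preosteoblasts on titanium with nanotopography were compared between cells that had shared their medium with osteoclasts and cells kept alone. The comparison used 6 of the 12 RNA sequencing libraries of the study, chosen by their labels: 3 of co-cultured and 3 of isolated cells. All 13340 genes that passed a low-count filter were tested, 11049 of them protein-coding. MC3T3-E1 is a mouse line from calvaria, and subclone 14 is 1 clone, so the libraries are repeats of 1 genotype. The labels call them biological triplicates, and nothing states more about how the cultures were separate. Both groups were grown on titanium discs with nanotopography in medium with 7 mM β-glycerophosphate and 5 µg/mL L-ascorbic acid, and total RNA was taken on day 7. In the co-culture group, RAW 264.7 cells, a mouse macrophage line, had been driven towards osteoclasts with 50 ng/mL RANKL on inserts with 0.4 µm pores. The inserts stood over the osteoblasts for the last 2 days, after 5 days apart. Only the co-culture labels record RANKL or inserts, so effects of osteoclasts, RANKL, the insert and shared medium cannot be told apart. The sample descriptions also carry codes of unstated meaning whose first part no groups share, so whatever they mark cannot be told apart from the groups. The other 6 libraries, 3 isolated and 3 co-cultured on control titanium, entered the model fit and served as a second surface.

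Osteoblasts build bone by secreting a collagen matrix and then mineralising it, and osteoclasts of the macrophage lineage resorb it. The cell types steer each other through secreted factors: osteoblast-lineage cells make M-CSF and RANKL, which drive osteoclast formation, and the decoy receptor osteoprotegerin, which blocks RANKL. Collagenase-3, encoded by Mmp13, is made by osteoblast-lineage cells and cleaves fibrillar collagen.

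Transcripts differ in base composition, and the measured fold changes in this comparison followed it. To show how base composition can differ, 120 bases of coding sequence are printed from each of the following genes. They are the most abundant strongly raised gene under 42% GC and the most abundant strongly lowered gene over 60% GC. Both windows were read from GENCODE M21 transcripts (GRCm38/mm10), with G and C in capitals. The Mmp13 window lies on the plus strand at chr9:7272826-7272945 and is 46.7% GC, while its whole transcript is 41.7% GC. The window is thus nearer than its transcript to the median of all tested genes, 49.4%. The Hist2h2ac window lies on the minus strand at chr3:96220591-96220710 and is 68.3% GC, with a whole transcript of 61.1% GC.
Mmp13: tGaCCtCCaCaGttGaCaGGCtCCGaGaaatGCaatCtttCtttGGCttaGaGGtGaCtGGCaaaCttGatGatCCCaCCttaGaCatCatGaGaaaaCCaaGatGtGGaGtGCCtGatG
Hist2h2ac: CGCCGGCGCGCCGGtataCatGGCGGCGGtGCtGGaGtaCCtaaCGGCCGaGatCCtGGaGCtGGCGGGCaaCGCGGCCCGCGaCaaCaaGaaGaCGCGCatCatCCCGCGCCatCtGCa
Mmp13 was higher in co-culture and Hist2h2ac lower, and this was the general direction for genes at the low and the high end of GC content.

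A GC trend separated all 3 co-culture libraries from all 3 isolated libraries on nanotopography. The GC contrast of a library, its median log2 CPM (counts scaled by the library total) over genes above 60% GC minus that over genes below 40% GC, was 1.74, 0.88 and 1.64 in isolated replicates 1 to 3 and -1.52, -0.56 and -0.74 in co-culture replicates 1 to 3. The group means differed by -2.36 (exact two-sided permutation p = 0.1, the smallest that 3 against 3 allows). On control titanium the 6 values lay between 0.19 and 0.92 with the groups interleaved, so the isolated libraries on nanotopography lay at one side of the control libraries, apart from replicate 2 at 0.88, and the co-culture libraries at the other. The mean GC content of the counted transcripts was 51.2 ± 0.891% (SD, n = 3) in isolated cells and 47.2 ± 0.952% in co-culture. Because no co-culture library reached the GC contrast of any isolated one, the GC trend and the co-culture cannot be told apart here by library.

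**Figure D1:**
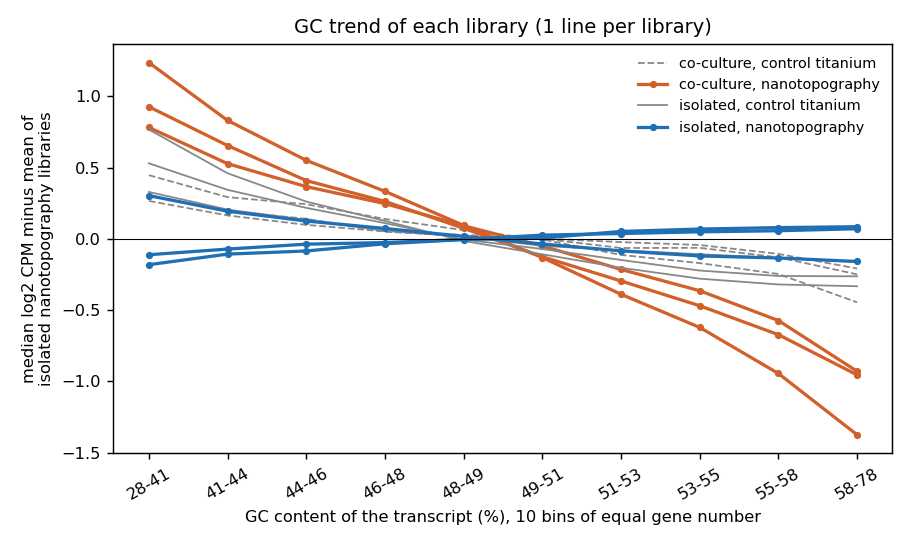
Median log2 CPM of each of the 12 libraries, relative to the mean of the 3 isolated nanotopography libraries, in 10 bins of 1334 genes ordered by transcript GC content; each line is 1 library. The 3 co-culture libraries on nanotopography lie above all others in the lowest bin, at 0.78 to 1.24, and below all others in the highest, at -0.93 to -1.38.

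Across bins of GC content the medians fell steadily. In the lowest of 10 equal bins of genes by GC content (28.3% to 41.1%) the median log2 fold change, co-culture over isolated, was 1.00, and in the highest bin (57.9% to 78.3%) it was -1.14. On control titanium the medians of the same bins lay between -0.26 and 0.09. Below 40% GC, 695 of 877 tested genes were called higher and 7 lower. Above 60% GC, 1 of 554 was called higher and 463 lower. Across 11049 protein-coding genes, Spearman's rho of the log2 fold change was -0.749 with transcript GC, -0.663 with coding-sequence GC, -0.609 with 3' UTR GC (11041 genes) and -0.115 with 5' UTR GC (10910 genes). Genes share libraries and are not independent, so these are descriptions. Transcript length gave a rho of 0.335. Among genes of 47 to 51% GC, the medians of the length quintiles ran from -0.12 for the shortest to 0.17 for the longest.

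The share of some RNA classes moved along with the GC trend. The mitochondrial ribosomal RNAs held 4.54, 6.35 and 4.52% of counts in isolated replicates 1 to 3 and 15.8, 8.66 and 10.2% in co-culture. Gm26917 and Gm42418, predicted genes where ribosomal RNA reads often align, together held 8.33, 3.66 and 6.83% against 0.756, 0.8 and 0.35%. Neither pair of groups overlapped (exact permutation p = 0.1 for both). Co-culture replicate 1 stood apart, with the most mitochondrial ribosomal RNA and the lowest GC contrast, so counts are also given without it. Totals of the 6 libraries ran from 6014139 to 7565815 counts, and the groups overlapped. The part of these shares in the results below was not tested.

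Every gene is therefore given by 2 fits of edgeR's quasi-likelihood test: one unadjusted, and one GC-adjusted, in which each library's smooth trend with transcript GC content and length was removed. If co-culture changed genes in step with their GC content, the adjustment removes that change too. Genes are called at a Benjamini-Hochberg adjusted p below 0.05 over all 13340 genes. Unadjusted, 7892 genes were called, 3834 higher and 4058 lower, which is 59.2% of those tested (28.7% higher and 30.4% lower). GC-adjusted, 5157 were called, 2457 higher and 2700 lower (38.7%, with 18.4% higher and 20.2% lower). The 3 and 3 libraries did not overlap for 8587 genes (64.4%), 4192 with co-culture above (31.4%) and 4395 below (32.9%). Both fits called 3348 genes with the same sign, 1522 higher (11.4%) and 1826 lower (13.7%), and 391 genes with opposite signs. Without co-culture replicate 1 the counts were 6725, 4109 and 2742. The 4153 genes called by the unadjusted fit alone had a median GC content of 42.6% where higher and 56.1% where lower, against 49.4% over all tested genes. Among the 2835 genes of 47 to 51% GC, where the trend crosses 0, 651 were higher and 525 lower without adjustment (41.5%), and 0 changed sign between the fits among those called in both. These shares of all genes are the background for each count over a gene list below. In bulk RNA, a change in the RNA per cell and a change in the number of cells of one kind cannot be told apart.

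**Figure D2:**
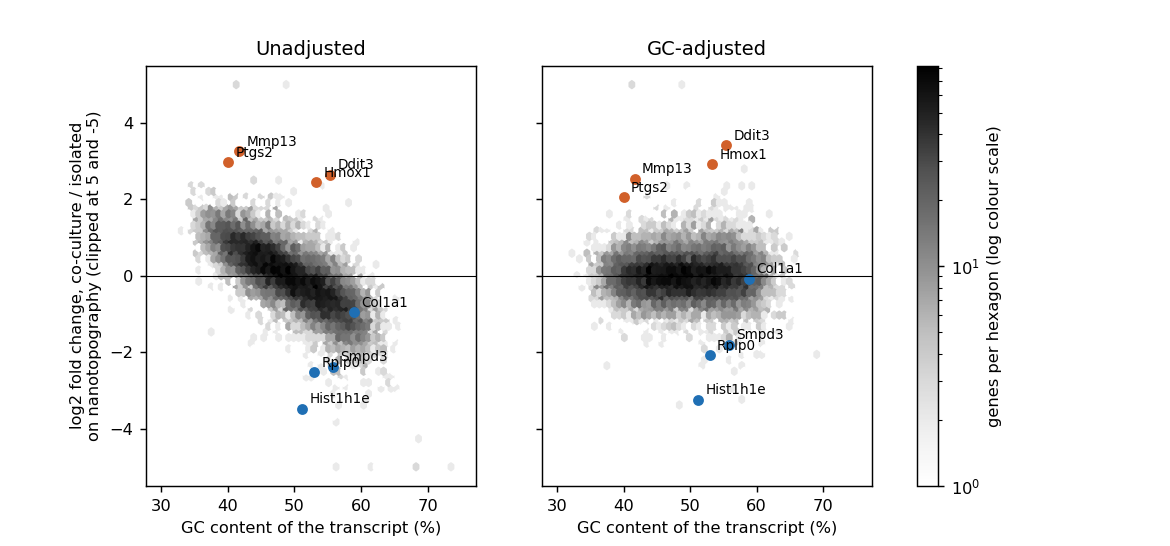
Log2 fold change (co-culture over isolated cells on nanotopography) against transcript GC content for 13340 genes, unadjusted on the left and GC-adjusted on the right; darker hexagons hold more genes (log colour scale), and 8 genes named in the text are marked. The left cloud slopes from a median of 1.00 in the lowest bin of GC content to -1.14 in the highest; on the right the cloud is level, and Mmp13, Ptgs2, Hmox1 and Ddit3 stay above it while Hist1h1e and Rplp0 stay below.

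The 8 highest log2 fold changes called in both fits were those of Lpl, Mmp13, Ptgs2, Gadd45a, Atf3, Clcn3, Timp3 and Ddit3. Lpl, with 1 count in isolated cells, passed the low-count filter through the co-culture group and could only be called higher. It is described with the macrophage markers. Mmp13 (chr9:7272514-7283331) measured 49.9, 75.2 and 67.4 CPM in isolated replicates 1 to 3 and 693, 515 and 636 CPM in co-culture. Every co-culture library was well above every isolated one, and the log2 fold change was 3.26 ± 0.17 (SE; adjusted p = 5.99e-10), GC-adjusted 2.54 ± 0.12 (adjusted p = 5.95e-12). Ptgs2 (chr1:150100031-150108227), which encodes the prostaglandin-forming cyclooxygenase-2, went from 30.5, 31.6 and 29.1 to 266, 211 and 241 CPM, a log2 fold change of 2.98 ± 0.12 (adjusted p = 5.12e-11) and GC-adjusted 2.06 ± 0.09. Timp3 (chr10:86300372-86349506), an inhibitor of metalloproteinases, went from 169, 204 and 164 to 1217, 1075 and 1082 CPM, and at 46.8% GC its values in the 2 fits were close, 2.65 ± 0.13 (adjusted p = 3.63e-10) and 2.35 ± 0.11. These 8 genes were named by a rule that takes only genes whose groups do not overlap, which held for 64.4% of all tested genes.

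Regulators of the stress response rose from lower levels. Ddit3 (CHOP) measured 9.77, 9.42 and 9.02 CPM in isolated and 54.3, 58.8 and 63.1 CPM in co-cultured libraries. Its transcript is 55.4% GC, against the direction of the trend, and the log2 fold change of 2.64 ± 0.12 (adjusted p = 1.18e-10) became 3.42 ± 0.13 after adjustment. Atf3, a transcription factor induced by stress, went from 1.69, 2.35 and 1.53 to 11.9, 15.3 and 11.9 CPM (2.79 ± 0.25, GC-adjusted 3.10 ± 0.23). Gadd45a, a growth-arrest gene, went from 1.18, 1.03 and 1.87 to 11.9, 9.41 and 10.5 CPM (2.96 ± 0.30, GC-adjusted 3.13 ± 0.30). Hmox1 (chr8:75093621-75100589), which encodes the haem-degrading enzyme heme oxygenase-1, went from 47.4, 39.9 and 43.9 to 217, 261 and 233 CPM, so that the lowest co-culture library was far above the highest isolated one. Its log2 fold change was 2.44 ± 0.15 (adjusted p = 3.49e-09) and rose to 2.91 ± 0.11 after adjustment.

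Several raised genes had low GC content, and their values shrank after adjustment without losing the call. Ero1l, an oxidase of the endoplasmic reticulum that is also induced by low oxygen, went from 35.4, 48.5 and 32.2 to 273, 204 and 229 CPM (2.60 ± 0.15, GC-adjusted 1.84 ± 0.11). Fnip1, a partner of folliculin, went from 60.3, 86.8 and 67.7 to 376, 279 and 305 CPM, and its log2 fold change of 2.16 ± 0.16 became 1.08 ± 0.11. For Wsb1 the values were 2.11 ± 0.21 and 1.57 ± 0.15, for Inhba, which encodes the activin subunit beta A, 1.99 ± 0.18 and 1.14 ± 0.09, and for the chloride transporter gene Clcn3 2.73 ± 0.21 and 1.86 ± 0.20. Adjusted p-values of these 5 genes were at most 5.82e-07 unadjusted and 4.36e-07 GC-adjusted. Among genes of 47 to 51% GC, the highest was Gadd45a, given above, followed by Tnfrsf9, a receptor of the TNF family, at 2.49 ± 0.16, Ptx3, a secreted pentraxin, at 2.03 ± 0.18, the heat-shock protein gene Hsph1 at 1.84 ± 0.13 and the clock-related repressor gene Bhlhe41 at 1.73 ± 0.15. Their GC-adjusted values were 2.37 ± 0.15, 2.20 ± 0.18, 1.63 ± 0.12 and 1.44 ± 0.13, with adjusted p of at most 1.46e-07 in either fit. Hsph1 was the tightest, at 65.2, 60.3 and 65.7 CPM in isolated and 226, 229 and 227 CPM in co-cultured libraries.

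**Figure D3:**
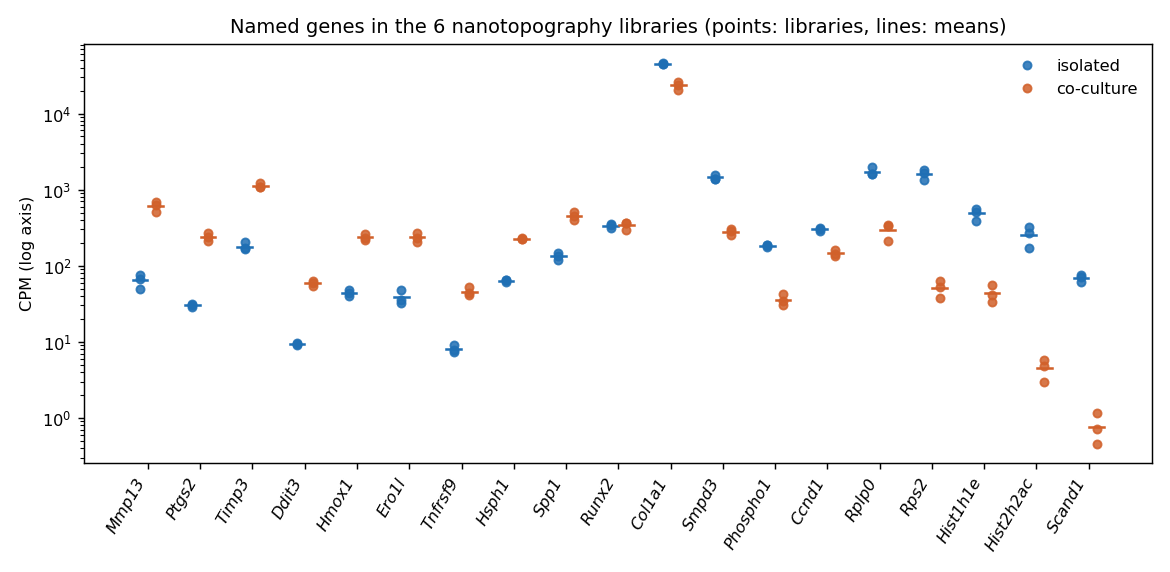
CPM (log axis) of 19 named genes in the 6 nanotopography libraries; points are libraries, short lines are the means of 3, blue is isolated and orange is co-culture. The groups separate for all genes shown except Runx2, whose isolated libraries lie at 308 to 355 CPM and co-culture libraries at 295 to 364 CPM. Several of the genes were named by a rule that requires this separation.

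Histone and ribosomal protein genes were the main kinds among the genes lowered most in both fits. Both kinds have near-identical copies or processed pseudogenes, so values of single genes are uncertain where counting could split reads between copies. Hist2h2ac (chr3:96220361-96220880), an H2A histone gene, fell from 267, 172 and 320.2 CPM to 2.98, 5.85 and 4.87 CPM, a log2 fold change of -5.78 ± 0.35 (adjusted p = 3.49e-09) and GC-adjusted -4.34 ± 0.25. The H2A genes Hist1h2ak, Hist1h2ab and Hist1h2af and the H3 gene Hist1h3b had values between -6.18 and -4.60, GC-adjusted between -3.96 and -3.26. Hist1h2af had 1 co-culture library at 0, and its GC-adjusted value of -3.30 ± 0.47 was -2.70 without co-culture replicate 3. Rps2 (chr17:24718116-24721929), a protein of the small ribosomal subunit, fell from 1787, 1346 and 1650.0 to 38.0, 63.4 and 51.7 CPM (-4.96 ± 0.22, adjusted p = 9.36e-11, GC-adjusted -4.17 ± 0.13). The lowest isolated library held many times the Rps2 level of the highest co-culture library.

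The others among the lowest 8 were Scand1, a SCAN-domain gene, and H1fx, a linker histone gene outside the histone clusters. Scand1 fell from 76.3, 61.6 and 71.3 to 0.709, 1.15 and 0.456 CPM (-6.43 ± 0.25, GC-adjusted -4.28 ± 0.22), and H1fx from 48.4, 44.6 and 53.8 to 0.284, 0.382 and 0.913 CPM (-6.53 ± 0.29, GC-adjusted -4.13 ± 0.31). Their transcripts are 68.4% and 71.3% GC, near the top of the range, where few genes define the trend. Among abundant genes, the linker histone genes Hist1h1e and Hist1h1c fell by 3.48 and 3.38 on the log2 scale, GC-adjusted -3.25 ± 0.20 and -2.73 ± 0.15. Rplp0 (chr5:115559467-115563727), a protein of the ribosomal stalk, fell from 1992, 1582 and 1581 to 212, 347 and 335 CPM (-2.53 ± 0.17, adjusted p = 1.12e-08, GC-adjusted -2.07 ± 0.12). Rplp1, its partner in the stalk, went from 429, 435 and 488 to 38.5, 94.9 and 86.1 CPM (-2.62 ± 0.23, GC-adjusted -1.62 ± 0.15), and the annotated protein-coding gene Gm10073 had -3.10 ± 0.21, GC-adjusted -2.06 ± 0.15. Among genes of 47 to 51% GC the lowest were Rps16 at -4.13 ± 0.36, the variant histone gene H2afz at -3.56 ± 0.28, the H4 genes Hist1h4d and Hist1h4c at -3.49 ± 0.34 and -3.42 ± 0.39, and Uqcrq, a subunit of respiratory complex III, at -2.65 ± 0.19. All 5 fell with little change on adjustment, and Rps16 measured 21.6, 15.9 and 17.4 CPM in isolated and 0.993, 1.02 and 1.06 CPM in co-cultured libraries.

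Smpd3 and Phospho1, genes of mineralisation, fell in both fits, and Spp1 rose. Smpd3 (chr8:106252548-106337988), a sphingomyelinase needed for bone mineralisation, measured 1563, 1398 and 1400.0 CPM in isolated and 254, 282 and 299.9 CPM in co-cultured libraries. It fell in both fits, at -2.38 ± 0.11 (adjusted p = 9.36e-11) and -1.80 ± 0.08 (adjusted p = 5.95e-12). Phospho1 (chr11:95824499-95832140), a phosphatase of matrix vesicles, fell from 186, 177 and 189 to 30.4, 42.6 and 34.7 CPM, and with a transcript of 60.6% GC its value of -2.35 ± 0.15 was reduced to -1.16 ± 0.11 (adjusted p = 1.11e-07). Serpinh1, the collagen chaperone HSP47, fell from 3148, 2663 and 3170.0 to 696, 925 and 853 CPM (-1.86 ± 0.14, GC-adjusted -1.12 ± 0.08). Spp1 (chr5:104435118-104441050), which encodes osteopontin, rose from 118, 149 and 133 to 455, 402 and 504 CPM (1.77 ± 0.12, GC-adjusted 1.29 ± 0.09, adjusted p = 2.84e-09). Of 28 tested genes of bone matrix and mineralisation, 6 were higher and 13 lower, with a median of -0.36, and GC-adjusted 4 were higher and 11 lower, with a median of -0.19. Over all tested genes the medians were -0.0024 and 0.0025.

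The type I collagen genes showed how far the adjustment reaches. Col1a1 (chr11:94936224-94953042, 58.9% GC) measured 45010.0, 44620.0 and 46110.0 CPM in isolated and 20210.0, 23870.0 and 26230.0 CPM in co-cultured libraries. The groups were clearly apart, at -0.95 ± 0.12 (adjusted p = 7.08e-06), but the GC-adjusted value was -0.08 ± 0.09 (adjusted p = 0.528). Col1a2 (55.7% GC) had -0.88 ± 0.11 and a smaller GC-adjusted fall of 0.32 ± 0.08 (adjusted p = 0.00374). Of 28 tested collagen genes, 4 were higher and 13 lower unadjusted, and 11 were higher and 9 lower after adjustment. Their median GC content was 56.8%, and their median log2 fold change went from -0.44 to 0.10.

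Of the 18 tested osteoblast transcription factors, 2 were higher and 4 lower in both fits, and Runx2 was called in neither. Runx2 (chr17:44495987-44814797), the master regulator of the lineage, measured 308, 355 and 345 CPM in isolated and 364, 295 and 363 CPM in co-cultured libraries, and it was called in neither fit (0.02 ± 0.12, adjusted p = 0.895; GC-adjusted 0.00 ± 0.10). Sp7, which encodes osterix, had -0.61 ± 0.10 (adjusted p = 9.11e-05), and GC-adjusted -0.10 ± 0.08 (adjusted p = 0.386). Dlx5 and Tcf7, transcription factors that act in osteoblasts, fell in both fits, at -1.47 ± 0.14 and -0.90 ± 0.10, GC-adjusted -0.85 ± 0.11 and -0.59 ± 0.07. Id3, an inhibitor of helix-loop-helix factors, fell from 50.0, 35.0 and 42.5 to 6.95, 9.92 and 8.22 CPM (-2.34 ± 0.20, GC-adjusted -1.59 ± 0.16), and Atf4, a regulator of both bone formation and amino acid stress, rose from 143, 154 and 161 to 282, 264 and 322 CPM (0.92 ± 0.12, GC-adjusted 1.46 ± 0.13). Unadjusted, 2 of the 18 were higher and 7 lower, and GC-adjusted 4 were higher and 5 lower, where 18.4% and 20.2% of all genes were.

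Later markers depended on the fit or on a library. Alpl, which encodes alkaline phosphatase, had -0.54 ± 0.13 (adjusted p = 0.00244) and GC-adjusted 0.20 ± 0.08 (adjusted p = 0.0626, and 0.25 with adjusted p = 0.0479 without isolated replicate 1). For Bglap, which encodes osteocalcin and has near-identical neighbouring copies, the values were -0.50 ± 0.18 (adjusted p = 0.0243) and 0.37 ± 0.18 (adjusted p = 0.104). Leaving out co-culture replicate 2 gave Bglap -0.43 (adjusted p = 0.0818) and GC-adjusted 0.49 (adjusted p = 0.0477), and leaving out isolated replicate 2 gave -0.40 (adjusted p = 0.0852) and 0.51 (adjusted p = 0.0359). Ibsp, which encodes bone sialoprotein, measured 8847, 12280.0 and 10810.0 CPM in isolated and 9497, 7832 and 8826 CPM in co-cultured libraries, which overlap. It was not called unadjusted (-0.29 ± 0.15, adjusted p = 0.106), but was without isolated replicate 1 (-0.41, adjusted p = 0.0391) and when GC-adjusted (-0.65 ± 0.12, adjusted p = 0.000195).

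Among signals that osteoblasts send to osteoclasts, Tnfrsf11b fell and Csf1 and Efnb2 rose in both fits. Tnfrsf11b, which encodes osteoprotegerin, measured 277, 344 and 276 CPM in isolated and 221, 201 and 233 CPM in co-cultured libraries without overlap. With a transcript of 42.9% GC its fall of 0.46 ± 0.11 (adjusted p = 0.00243) was larger after adjustment, -1.06 ± 0.08 (adjusted p = 7.49e-09). Csf1, which encodes the growth factor M-CSF, went from 201, 173 and 191 to 273, 302 and 295 CPM (0.62 ± 0.09, GC-adjusted 1.10 ± 0.08). Efnb2, the membrane ligand ephrin-B2, went from 33.0, 39.3 and 34.0 to 59.9, 50.8 and 56.9 CPM (0.65 ± 0.12, GC-adjusted 0.71 ± 0.12). Tgfb1, which encodes transforming growth factor beta 1 and has a transcript of 62.5% GC, had -1.66 ± 0.16, GC-adjusted -0.28 ± 0.10 (adjusted p = 0.037). The GC-adjusted call of Tgfb1 held without co-culture replicate 2 alone, with adjusted p of 0.0508 to 0.215 without each of the other 5 libraries. Tnfsf11, which encodes RANKL, had 0 counts in all 6 libraries, so at a limit of 3 counts its level was at most 0.159 CPM over the isolated and 0.14 CPM over the co-culture group. Of 20 genes of osteoclast-directed signals, 10 passed the low-count filter; 5 were higher and 3 lower, GC-adjusted 3 higher and 4 lower, and without co-culture replicate 1 the GC-adjusted counts were 2 and 1.

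Most markers of macrophages and osteoclasts were near 0. Of 31 markers 10 passed the low-count filter, of which 6 were higher and 2 lower in co-culture, and GC-adjusted 7 were higher and 0 lower. The 2 lower ones, named after their values were seen, were Mmp9, a gelatinase (-0.52 ± 0.18, GC-adjusted 0.07 ± 0.14), and Nfatc1, a transcription factor of osteoclast formation (-0.49 ± 0.13, GC-adjusted -0.13 ± 0.10). The unadjusted call of Mmp9 was lost without co-culture replicate 1 (-0.35, adjusted p = 0.105) or isolated replicate 1 (-0.36, adjusted p = 0.129). Of all 31, 15 had 0 counts over the isolated group and 4 over the co-culture group, namely Calcr, Aif1, C1qa and C1qb. Counts in co-culture replicates 1 to 3 were 9, 20 and 15 for Ptprc, the leukocyte antigen CD45, and 13, 31 and 29 for Atp6v0d2, a proton pump subunit of osteoclasts, each against 0 in every isolated library. Clec5a, a receptor of myeloid cells, had 19, 38 and 57 counts against 0, at least 32.9-fold higher when 3 counts are assumed for the isolated group. For Atp6v0d2 the same bound was 21.1-fold. Clec5a and Atp6v0d2 had at most 5 counts in any library outside the co-culture group on nanotopography. Both therefore passed the low-count filter through that group and could only be called higher, so their part in the counts of higher markers was set by the filter. Lyz2, the macrophage lysozyme, went from 1.18, 0.883 and 0.681 to 3.83, 3.69 and 4.87 CPM (2.15 ± 0.42, adjusted p = 0.000361, GC-adjusted 2.16 ± 0.42). The summed level of the 31 markers was 305 to 322 CPM in isolated and 316 to 426 CPM in co-culture libraries; much of it lies in Ctsk, Itgb3, Nfatc1 and Mmp9, which the isolated cells also expressed. Lpl, which encodes lipoprotein lipase and is made by macrophages and adipocytes, had a single count over the isolated libraries and 338 over the co-culture libraries; their ratio was 293, with a 95% counting interval of 52.2 to 11600. The fitted log2 fold change of Lpl was 7.79, and 9.83 without isolated replicate 3, which holds that 1 count. On control titanium Lpl had 2, 1 and 1 counts in isolated replicates 1 to 3 and 5, 9 and 20 in co-culture. Lpl too passed the low-count filter through the co-culture group on nanotopography and could only be called higher. The part of RNA from such cells in the results was not tested.

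Genes of hypoxia and glycolysis were more often higher than lower. Of 33 tested, 16 were higher and 5 lower (median 0.35), against 28.7% and 30.4% of all genes, and GC-adjusted 19 were higher and 2 lower (median 0.50), against 18.4% and 20.2%. Both fits called 12 of them higher and 2 lower. Besides Ero1l, the pH regulator gene Car9 went from 55.6, 44.7 and 55.6 to 109.7, 134 and 139.7 CPM (1.30 ± 0.13, GC-adjusted 1.78 ± 0.10). Vegfa, the vascular growth factor, went from 196, 246 and 191 to 484, 465 and 523 CPM (1.22 ± 0.12, GC-adjusted 1.37 ± 0.12), and the hexokinase gene Hk2 rose by 1.06 ± 0.11, GC-adjusted 1.22 ± 0.10. Without co-culture replicate 1 the GC-adjusted counts were 18 higher and 2 lower.

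Targets of the integrated stress response had calls in both directions. Of 28 tested genes, 10 were higher and 11 lower, against 28.7% and 30.4% of all genes. GC-adjusted 13 were higher and 5 lower with a median of 0.30, against 18.4% and 20.2% of all genes. The list has a median GC content of 55.3%. The unadjusted median of 0.04 lay on either side of 0 when 1 library was left out, down to -0.16 without isolated replicate 3. Trib3, a pseudokinase induced by CHOP and ATF4, went from 11.3, 6.77 and 6.81 to 27.0, 33.7 and 31.2 CPM, and rose by 1.89 ± 0.18, GC-adjusted 2.83 ± 0.15. Among 20 chaperone genes of the endoplasmic reticulum, 6 were higher and 9 lower, GC-adjusted 3 and 5. Both GC-adjusted counts, and the unadjusted count of higher genes, were near the shares of all genes. Hspa5 and Hsp90b1, the main chaperones BiP and GRP94, rose (0.82 ± 0.10 and 1.17 ± 0.14, GC-adjusted 0.45 ± 0.08 and 0.64 ± 0.08), while Manf, a secreted stress factor, fell (-1.03 ± 0.11, GC-adjusted -0.83 ± 0.09).

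Antioxidant and iron genes also had calls in both directions. Of 20 tested NRF2 targets 8 were higher and 5 lower, against 28.7% and 30.4% of all genes. GC-adjusted 8 were higher and 4 lower, against 18.4% and 20.2%. The share of these targets called lower was not above that of all genes in either fit. The glutathione synthesis gene Gclc and the exporter gene Abcc1 rose (1.03 ± 0.14 and 0.86 ± 0.10, GC-adjusted 0.86 ± 0.13 and 0.92 ± 0.08), and Taldo1, transaldolase of the pentose phosphate pathway, fell from 94.2, 74.5 and 92.0 to 18.4, 26.2 and 29.4 CPM (-1.81 ± 0.16, GC-adjusted -1.29 ± 0.12). Slc40a1, the iron exporter ferroportin, went from 1.52, 2.35 and 0.681 to 9.22, 9.03 and 9.74 CPM (2.58 ± 0.29, GC-adjusted 2.04 ± 0.27), and Blvrb, biliverdin reductase B, fell (-1.83 ± 0.18, GC-adjusted -0.90 ± 0.14). Of 33 lysosome and autophagy genes 11 were higher and 9 lower, and GC-adjusted 20 were higher and 4 lower with a median of 0.36. The unadjusted median of this list was 0.02, and ran from -0.08 without co-culture replicate 2 to 0.11 without co-culture replicate 1. Without that library 12 were higher and 5 lower unadjusted.

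**Figure D4:**
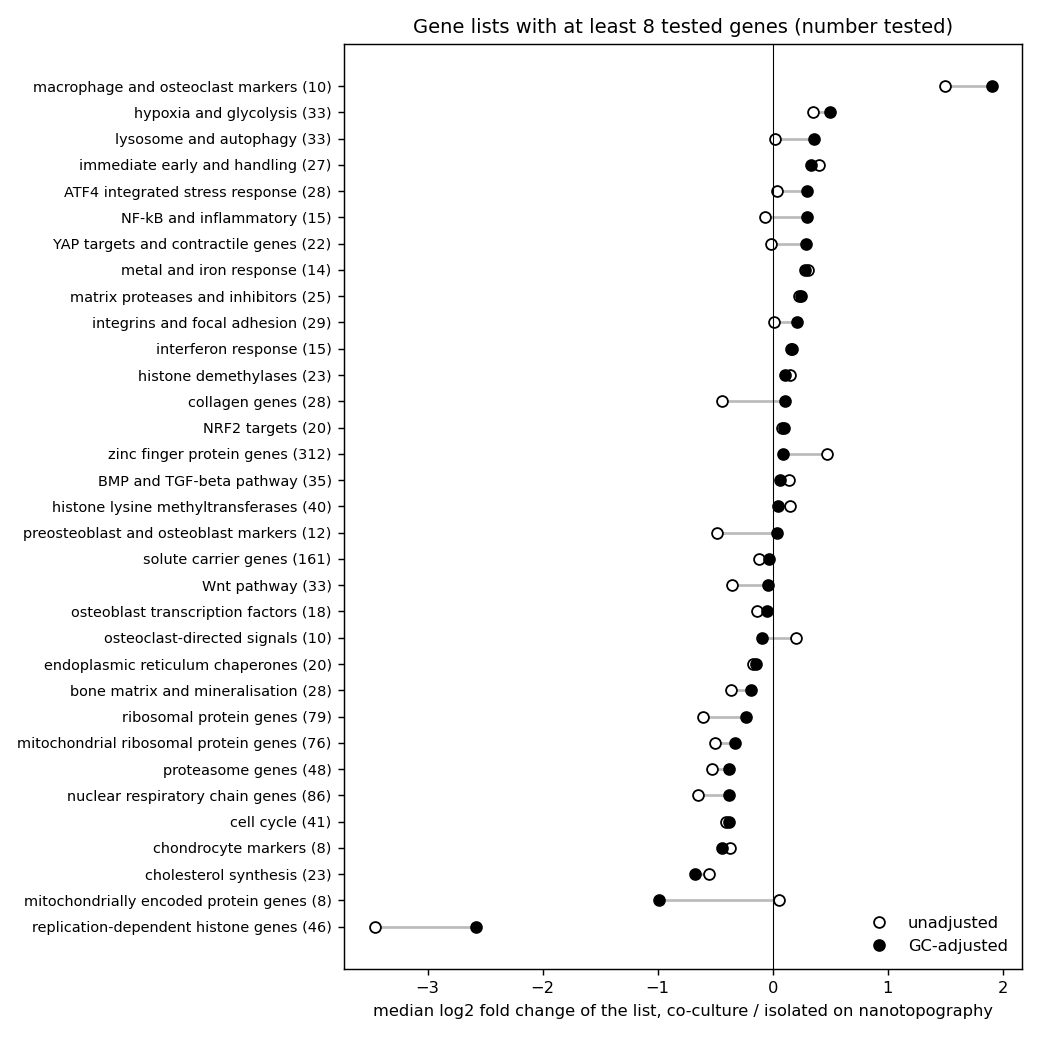
Median log2 fold change (co-culture over isolated cells on nanotopography) of each gene list with at least 8 tested genes, open circles unadjusted and filled circles GC-adjusted, ordered by the GC-adjusted median; the number tested is in brackets. Replication-dependent histones are lowest in both fits, at -3.46 and -2.58, and the mitochondrially encoded genes move from 0.05 to -0.99.

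Replication-dependent histone genes fell almost as a whole. Of 46 tested, 43 were lower and 0 higher in both fits, with medians of -3.46 and -2.58. Some had few counts in co-culture, such as Hist2h2ab with 79 over the isolated and 2 over the co-culture libraries. A gene that passes the low-count filter only through isolated libraries could hardly be called higher. How many of the 46 passed in that way was not counted. Another 21 of the 67 listed did not pass the low-count filter and are not described by these counts. Their summed share of counts, over all histone-cluster genes, was 0.171, 0.131 and 0.199% in isolated and 0.0133, 0.0211 and 0.0169% in co-culture replicates 1 to 3. Messages of these genes are known to end in a stem-loop and not in a poly(A) tail. The share of Gm26917 and Gm42418 given above also fell, while that of the mitochondrial ribosomal RNAs rose, and the part of either in the histone result was not tested. The cell cycle list had 8 higher and 23 lower of 41, and GC-adjusted 0 higher and 22 lower, with medians of -0.40 and -0.38. Without co-culture replicate 1, these counts were 4 and 17, and 0 and 20. Ccnd1, the G1 cyclin D1, fell from 311, 289 and 306 to 136, 162 and 141 CPM (-1.04 ± 0.10, GC-adjusted -0.89 ± 0.07), and Mcm2, a subunit of the replicative helicase, from 82.4, 70.6 and 79.0 to 31.2, 39.3 and 33.5 CPM (-1.15 ± 0.12, GC-adjusted -0.54 ± 0.09).

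Genes of protein synthesis, respiration and protein turnover were more often lower than higher. Of 79 tested ribosomal protein genes, 50 were lower and 4 higher, and GC-adjusted 30 were lower and 7 higher (medians -0.61 and -0.24). Rplp2, the other small stalk protein, and Rps7 fell in both fits, at -2.76 ± 0.18 and -1.98 ± 0.15, GC-adjusted -2.05 ± 0.11 and -1.81 ± 0.13. Nuclear genes of the respiratory chain had 52 lower and 1 higher of 86, GC-adjusted 42 and 1 (medians -0.65 and -0.38). Ndufa12, a complex I subunit, fell from 34.5, 43.7 and 49.3 to 5.68, 5.85 and 8.37 CPM (-2.69 ± 0.18, GC-adjusted -2.33 ± 0.18). Mitochondrial ribosomal protein genes had 42 lower and 7 higher of 76, GC-adjusted 32 and 10. Mrpl57 has 42.3% GC, so its fall of 2.81 ± 0.22 became -3.48 ± 0.26, while Mrps18a with 56.0% GC went from -2.44 ± 0.17 to -1.60 ± 0.13. Proteasome genes had 30 lower and 3 higher of 48, GC-adjusted 28 and 0, with Psmb2 at -1.40 ± 0.17 and Psma7 at -1.14 ± 0.14 (GC-adjusted -1.05 ± 0.15 and -0.82 ± 0.11). For these lists the share called lower after adjustment was above the 20.2% of all genes.

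Of 23 tested cholesterol synthesis genes, 17 were lower and 0 higher, and GC-adjusted 18 were lower and 0 higher, with medians of -0.56 and -0.68. Both fits called 13 of them lower, so the calls are in part of different genes. Mvk and Mvd, enzymes of the mevalonate pathway, fell by 2.21 ± 0.18 and 2.11 ± 0.23, GC-adjusted -1.09 ± 0.15 and -1.06 ± 0.20. Without co-culture replicate 1, 16 were lower and GC-adjusted 17.

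In the Wnt pathway, 7 of 33 tested genes were higher and 17 lower, GC-adjusted 8 and 11. The receptor genes Fzd8 and Fzd2 fell (-1.96 ± 0.14 and -1.91 ± 0.16, GC-adjusted -1.83 ± 0.12 and -1.18 ± 0.13). Axin2, a feedback target of the pathway, fell from 26.6, 25.2 and 27.7 to 8.09, 8.27 and 9.43 CPM (-1.62 ± 0.13, GC-adjusted -1.14 ± 0.12), and the ligand gene Wnt6 fell from 43.1, 33.2 and 41.5 to 7.09, 11.2 and 8.37 CPM (-2.13 ± 0.19, GC-adjusted -0.87 ± 0.14). Immediate early and handling genes, which respond within minutes to disturbance of a culture, had 11 higher and 9 lower of 27, GC-adjusted 13 and 5. The medians of this list were 0.40 and GC-adjusted 0.33. Besides Atf3, which rose, the transcription factor genes Jund, Klf2 and Myc fell, at -3.69 ± 0.17, -2.63 ± 0.18 and -1.52 ± 0.14 (GC-adjusted -1.76 ± 0.14, -1.32 ± 0.15 and -1.11 ± 0.13).

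Enzymes of histone methylation, which the study's title names, had calls in both directions. Of 40 tested histone lysine methyltransferase genes 14 were higher and 9 lower, against 28.7% and 30.4% of all genes, and GC-adjusted 13 and 3, against 18.4% and 20.2%. Both fits called 10 of them higher and 0 lower. Of 23 demethylase genes 10 were higher and 3 lower, GC-adjusted 7 and 1. Within the complex that methylates lysine 27 of histone H3, Suz12 went from 48.4, 71.7 and 44.8 to 173, 119.5 and 147 CPM and rose in both fits (1.41 ± 0.19, adjusted p = 1.15e-05, GC-adjusted 0.65 ± 0.11, adjusted p = 8.85e-05). Eed rose too (0.59 ± 0.14, GC-adjusted 0.46 ± 0.13), though its GC-adjusted call was lost without isolated replicate 1 (0.32, adjusted p = 0.0692). The catalytic subunit gene Ezh2 measured 71.6, 78.0 and 68.4 CPM in isolated and 102, 83.8 and 80.8 CPM in co-cultured libraries. It was called at 0.29 ± 0.12 (adjusted p = 0.0389), not GC-adjusted (-0.18 ± 0.09, adjusted p = 0.113), and not unadjusted without co-culture replicate 1 (0.17, adjusted p = 0.223), isolated replicate 1 (0.27, adjusted p = 0.1) or isolated replicate 3 (0.24, adjusted p = 0.15). Its paralogue Ezh1 rose in both fits (0.48 ± 0.12, GC-adjusted 0.65 ± 0.10).

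Other enzymes of this group followed their GC content in part. Kmt2a, a lysine 4 methyltransferase, rose in both fits (0.61 ± 0.12, GC-adjusted 0.45 ± 0.09), and Setd7 was called in neither (0.14 ± 0.10, GC-adjusted -0.18 ± 0.07). Kdm3a, a demethylase of lysine 9 that is induced by low oxygen, went from 118, 114 and 108 to 298, 269 and 288 CPM (1.33 ± 0.10, GC-adjusted 0.90 ± 0.08). Calls of the lysine 27 demethylase genes depended on the fit. Kdm6a (42.5% GC) had 0.92 ± 0.16 (adjusted p = 9.05e-05) and GC-adjusted 0.17 ± 0.12 (adjusted p = 0.267). Kdm6b (59.6% GC) had -0.22 ± 0.11 (adjusted p = 0.0929) and GC-adjusted 0.70 ± 0.10 (adjusted p = 1.02e-05). Kdm5a, a lysine 4 demethylase (43.3% GC), went from 157, 209 and 162 to 344, 279 and 293 CPM. Its unadjusted call (0.79 ± 0.13, adjusted p = 8.78e-05) was not kept after adjustment for GC content and length (-0.01 ± 0.07, adjusted p = 0.948). With GC content alone removed, and not transcript length, Kdm5a was still called higher (0.22, adjusted p = 0.0336). For Kdm4b and Kdm5b the unadjusted calls (-0.98 ± 0.17 and 0.47 ± 0.10) were not kept after adjustment (-0.07 ± 0.11 and 0.11 ± 0.10).

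For 391 genes the sign of the call depended on the fit, 206 higher unadjusted and lower GC-adjusted and 185 the reverse. The most abundant protein-coding ones higher unadjusted were mt-Co1, a mitochondrial subunit of cytochrome oxidase, at 0.39 ± 0.12 and GC-adjusted -0.43 ± 0.13, the clathrin heavy chain gene Cltc at 0.35 ± 0.09 and -0.33 ± 0.10, and the translocon gene Ssr3 at 0.60 ± 0.11 and -0.20 ± 0.08. Those lower unadjusted were Pkm, the glycolytic pyruvate kinase, at -0.56 ± 0.16 and 0.30 ± 0.09, the transporter chaperone gene Bsg at -0.34 ± 0.12 and 0.59 ± 0.08, and the myosin gene Myh9 at -0.33 ± 0.13 and 0.28 ± 0.09. These are small changes, and many calls were lost when 1 library, often any of several, was left out. Unadjusted, mt-Co1 was not called without co-culture replicate 1 (0.25, adjusted p = 0.0836), nor Bsg without that library (-0.20, adjusted p = 0.129) or isolated replicate 3 (-0.31, adjusted p = 0.0804). Myh9 kept its call without co-culture replicate 2 alone, with adjusted p of 0.0576 to 0.163 without each of the other 5 libraries. GC-adjusted, Ssr3 was not called without co-culture replicate 1 or 3 or isolated replicate 1 or 3 (adjusted p 0.119 to 0.154). GC-adjusted calls of Cltc, mt-Co1 and Myh9 were lost without co-culture replicate 3, isolated replicate 1 or isolated replicate 3 (adjusted p 0.0534 to 0.0904), and that of Pkm without co-culture replicate 2 (0.22, adjusted p = 0.0905) or isolated replicate 2 (0.26, adjusted p = 0.054). The GC-adjusted call of Bsg held without each library in turn.

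Calls in lists of low GC content also moved with the fit. Of 312 tested zinc finger protein genes, with a median of 44.7% GC, 155 were higher and 46 lower, and GC-adjusted 51 were higher and 34 lower (medians 0.47 and 0.09). Of 8 tested mitochondrially encoded protein genes, with a median of 36.4% GC, 1 was higher and 0 lower, and GC-adjusted 0 were higher and 7 lower. Their unadjusted median of 0.05 ran from -0.31 without co-culture replicate 1 to 0.32 without isolated replicate 2.

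On control titanium the same co-culture was measured in 6 other libraries, whose groups overlapped in GC contrast. There 2622 genes were called unadjusted (19.7%) and 3663 GC-adjusted (27.5%). Across the 13340 genes, Spearman's rho between the log2 fold changes on the 2 surfaces was 0.0994 unadjusted, 0.341 GC-adjusted and 0.356 unadjusted among genes of 47 to 51% GC. Within the bins of GC content the unadjusted rho ran from 0.0872 in the lowest to 0.532 in the highest. Of the genes called higher GC-adjusted, 948 were shared, which is 38.6% of those on nanotopography and 48% of those on control titanium, and of those lower, 811 were shared (30% and 48%). No library is shared between the surfaces, but all 12 enter the common reference of the GC adjustment.

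Timp3, Ptgs2 and Hmox1 rose on both surfaces, and Rplp0, Rplp2 and Rps7 fell on nanotopography without a call on control titanium. GC-adjusted, Timp3 had 2.35 on nanotopography and 2.38 ± 0.11 on control titanium, Ptgs2 2.06 and 2.44 ± 0.09, and Hmox1 2.91 and 3.21 ± 0.11. Rplp0 had -2.07 on nanotopography and 0.25 ± 0.12 on control titanium (adjusted p = 0.119), Rplp2 -2.05 and 0.00 ± 0.10, and Rps7 -1.81 and 0.26 ± 0.11. The difference between surfaces was itself called in both fits with the same sign for 1642 genes (12.3%), out of 6383 called unadjusted (47.8%) and 2650 GC-adjusted (19.9%). For Timp3 it was called in neither fit, and for Hmox1 unadjusted only (-0.83, adjusted p = 0.00372). For Ptgs2 it was called with opposite signs, at 0.70 unadjusted (adjusted p = 0.00239) and -0.38 GC-adjusted (adjusted p = 0.0443). For Rplp0 it was -2.84 unadjusted (adjusted p = 3.08e-06) and -2.32 GC-adjusted (adjusted p = 5.77e-08), and for Suz12 1.63 (adjusted p = 0.000281) and 0.75 (adjusted p = 0.00243). On control titanium 19 of 46 replication-dependent histone genes were lower GC-adjusted, against 43 on nanotopography, and the difference of these counts was not tested.

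**Figure D5:**
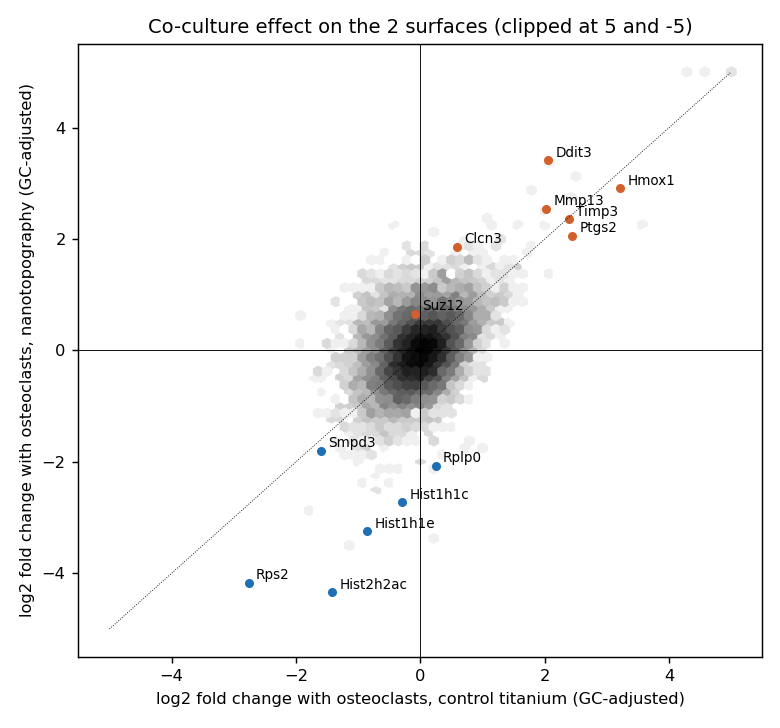
GC-adjusted log2 fold change of co-culture over isolated cells on nanotopography (vertical) against control titanium (horizontal) for 13340 genes, darker hexagons hold more genes, the dotted line marks equal values, and 13 genes are marked. Hmox1, Timp3 and Ptgs2 lie near the line, while Rplp0 and Hist1h1c lie far below it, near 0 on control titanium.

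A transcript outside the naming rule had the lowest fitted log2 fold change of the 13340 tested genes in the unadjusted fit, and was chosen after its value was seen. Gm37194, a TEC entry of the annotation (a transcript of unsettled status) at chr14:50061360-50064390, had 218, 139 and 325 CPM in isolated replicates 1 to 3 and 2 counts in all over the co-culture libraries, against 4148 counts over the isolated ones. The ratio of isolated to co-culture was 2394 (95% counting interval 662 to 19780), and its GC content of 47.5% lies near where the trend crosses 0. On control titanium its log2 fold change was -5.98 ± 0.48. Galnt2, a glycosyltransferase gene, had 148 counts in isolated and 0 in co-cultured cells, at least 57.0-fold lower against a limit of 3 counts over the group.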

How the data were processed

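Each deposited file gives the authors' raw counts of 1 library by gene. The submitters' processing notes name mm10 and the tools cutadapt, STAR 2.4, HTSeq and DESeq2, with no role, annotation release or strand setting given, so overlapping or antisense genes cannot be set apart. Of the 12 files 11 end within a line, so the 52654 genes complete in each were used; all matched GENCODE M21, 52092 of them with version. Counts were tested in R 4.3.3 with edgeR 4.0.16 (TMM scaling, low-count filter, quasi-likelihood test on 4 group means over 12 libraries, Benjamini-Hochberg adjustment over 13340 genes, called below 0.05). P-values measure the spread between these libraries, which may be technical in part. CPM used TMM-scaled totals, and log2 CPM a prior count of 2. The GC-adjusted fit took each library's loess trend (span 0.3) of log2 CPM deviation on GC content, then on transcript length, as an offset, from the longest basic protein-coding transcript of each gene. The SE is the absolute log2 fold change over the square root of the F statistic. Intervals and limits from 3 counts cover counting error only. Both fits were run on simulated data, without and with a GC trend in the co-culture group on nanotopography. Changed genes were drawn without regard to GC content. The unadjusted fit was checked against a required outcome only without the trend.

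The members, gene lists and rules were chosen with earlier results of these data known. Named are, among protein-coding genes, the 8 highest and 8 lowest log2 fold changes with a mean of at least 5 CPM and of at least 100 CPM, called alike in both fits without overlap; the 5 highest and 5 lowest of 47 to 51% GC; the 3 most abundant of each sign that change sign between the fits; up to 4 members of each list with the smallest p; and a panel of bone and histone-methylation genes. Which of those list members the text prints was decided with their values seen, and Gm37194, Mmp9 and Nfatc1 lie outside the rule. Some genes that the rule names are not reported here. The fits were repeated with DESeq2 1.42.0 and limma-voom (limma 3.58.1), RLE or upper-quartile factors, looser and stricter filters, fewer libraries or genes, other GC corrections, a test against a fold of 2, the replicate number as a block, and each library removed in turn.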

Additional observations from a re-analysis of the deposited data

Results flagged for a closer look

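Of the 109 genes named, 39 had a co-culture effect that differed between the surfaces in both fits with the same sign. Adjusted p of the edgeR interaction test was at most 0.0154 unadjusted and 0.0404 GC-adjusted. Over all tested genes the share was 12.3%. Most rules picked genes by their change on nanotopography, which is 1 side of this difference, so a larger share among them is built in. The values are the log2 effect on nanotopography minus that on control titanium. Among genes raised on nanotopography, the difference was 1.35 for Mmp13 (GC-adjusted 0.52), 0.54 for Ddit3 (GC-adjusted 1.36) and 2.28 for Clcn3 (GC-adjusted 1.28). It was 1.68 for Wsb1 (GC-adjusted 1.06), 0.77 for Ptx3 (GC-adjusted 0.999), 1.07 for Spp1 (GC-adjusted 0.48) and 1.63 for Suz12 (GC-adjusted 0.75). Of these, Mmp13, Ddit3, Ptx3 and Spp1 were also called higher on control titanium in both fits, Clcn3 and Wsb1 only GC-adjusted, and Suz12 in neither. For histone genes the difference was -4.19 for Hist2h2ac (GC-adjusted -2.92), -2.70 for Hist1h1e (GC-adjusted -2.39) and -3.16 for Hist1h1c (GC-adjusted -2.43). Further histone values were -3.07 for Hist1h4d (GC-adjusted -3.02), -3.68 for Hist1h4c (GC-adjusted -3.61) and -1.97 for H2afz (GC-adjusted -1.92). Ribosomal protein genes had -2.25 for Rps2 (GC-adjusted -1.41), -2.84 for Rplp0 (GC-adjusted -2.32), -1.90 for Rplp1 (GC-adjusted -0.94) and -2.81 for Rplp2 (GC-adjusted -2.05). The same difference was -2.25 for Rps7 (GC-adjusted -2.07), -3.42 for Rps16 (GC-adjusted -3.12) and -3.29 for Gm10073 (GC-adjusted -2.31). Mitochondrial genes had -1.95 for Uqcrq (GC-adjusted -1.73), -2.30 for Ndufa12 (GC-adjusted -1.89), -1.58 for Mrpl57 (GC-adjusted -2.34) and -1.91 for Mrps18a (GC-adjusted -1.04). For proteasome genes it was -1.37 for Psmb2 (GC-adjusted -0.999) and -1.05 for Psma7 (GC-adjusted -0.68). In the bone and Wnt lists it was -1.42 for Serpinh1 (GC-adjusted -0.61), -1.21 for Dlx5 (GC-adjusted -0.52) and -1.68 for Id3 (GC-adjusted -0.86). There it was also -1.30 for Fzd8 (GC-adjusted -1.06) and -1.08 for Axin2 (GC-adjusted -0.50). In the cholesterol synthesis list it was -2.06 for Mvd (GC-adjusted -1.04). Other metabolic genes had -1.50 for Taldo1 (GC-adjusted -0.91) and -2.08 for Blvrb (GC-adjusted -1.13). Regulators had -0.62 for Ccnd1 (GC-adjusted -0.39), -2.34 for Jund (GC-adjusted -0.84), -1.64 for Kdm4b (GC-adjusted -0.72) and -3.10 for Scand1 (GC-adjusted -1.52). The TEC transcript had -5.02 for Gm37194 (GC-adjusted -5.16). The GC contrast ran from 0.88 to 1.74 in isolated and from -1.52 to -0.56 in co-cultured nanotopography libraries, and from 0.19 to 0.92 over the control titanium libraries; its part in the differences was not tested beyond the GC adjustment. With groups of 3, no library was tested as an outlier.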

How the results depend on the processing

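Scaling, filters, DESeq2 (7610 genes), limma-voom and the removal of mitochondrial and rRNA-like genes left the counts called within 1.5 times. No called gene named here changed sign under them. With the looser filter, 1 of the 109 genes named lost its unadjusted call, and 1 that was called under neither filter changed sign. GC adjustment moved the count on nanotopography from 7892 to 5157 (2457 higher, 2700 lower), and a test against a fold of 2 to 839 (214 higher, 625 lower). For the difference between surfaces, GC adjustment gave 2650 (1097 higher, 1553 lower) in place of 6383. The GC contrast between groups was -1.61 with limits of 45% and 55% GC, which spans less of the GC range. Without 1 library the counts ran from 6725 to 8108 unadjusted (3222 to 4129 higher, 3497 to 3979 lower), from 4109 to 5227 GC-adjusted (1941 to 2482 higher, 2168 to 2745 lower) and from 2713 to 3359 in both fits, and the GC contrast from -2.64 to -2.08. Deviations of same-numbered libraries from their group means correlated at -0.262, -0.391 and 0.0504, and GC-adjusted at -0.0821, -0.197 and 0.00203. With so few libraries per group, these values cannot show whether the cultures were paired. The replicate block gave 7757 genes unadjusted, 4952 GC-adjusted (2351 higher, 2601 lower), 3223 in both fits and 6231 for the difference between surfaces. Alternatives for genes called in both fits were chosen after seeing the data. Among genes called with or without the correction, signs turned for these under the GC corrections. Values are given as GC and length adjusted, GC only, GC bins, and GC and length with the replicate block. Cltc had -0.33, -0.21, -0.25 and -0.33. Ssr3 had -0.20, -0.20, -0.27 and -0.20. mt-Co1 had -0.43, -0.52, -0.51 and -0.43. Pkm had 0.30, 0.29, 0.26 and 0.30. Bsg had 0.59, 0.50, 0.48 and 0.59. Myh9 had 0.28, 0.43, 0.48 and 0.28. Alpl had 0.20, 0.19, 0.12 and 0.20. Bglap had 0.37, 0.13, 0.15 and 0.37. Ezh2 had -0.18, -0.19, -0.20 and -0.18. Kdm6b had 0.70, 0.83, 0.71 and 0.70. Mmp9 had 0.06567, 0.06245, 0.02363 and 0.07481. Col1a1 had 0.0232 under GC only. Kdm5a had -0.00731 under GC-adjusted. Kdm5a had -0.0071 under GC-adjusted with replicate block. Under GC only Kdm5a had 0.22 and was called higher (adjusted p = 0.0336), against the sign of its GC and length adjusted value. These corrections remove any effect that follows GC content, and the cause of the trend was not tested. Genes under the low-count filter, such as most macrophage markers, are limited by depth.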

Other observations

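Signalling and adhesion lists that the account above leaves out held calls in both directions, where 28.7% of all genes were higher and 30.4% lower, and GC-adjusted 18.4% and 20.2%. NF-kB and inflammatory genes had 6 higher and 5 lower of 15, GC-adjusted 8 and 1, and interferon response genes 4 higher and 2 lower of 15, GC-adjusted 4 and 1. Integrin and focal adhesion genes had 12 higher and 10 lower of 29, GC-adjusted 13 and 3. YAP targets and contractile genes had 4 higher and 7 lower of 22, GC-adjusted 11 and 5. Genes of the BMP and TGF-beta pathway had 13 higher and 14 lower of 35, GC-adjusted 10 and 8, and matrix proteases and their inhibitors 11 higher and 7 lower of 25, GC-adjusted 9 and 4. Metal and iron genes had 7 higher and 4 lower of 14, GC-adjusted 6 and 4. Solute carrier genes had 42 higher and 50 lower of 161, GC-adjusted 40 and 34, with unadjusted shares near those of all genes. Among markers of other cell types, chondrocyte markers had 1 higher and 3 lower of 8, GC-adjusted 0 and 7, and their summed level was 3430 to 4090 CPM in isolated and 2110 to 2360 CPM in co-cultured libraries. Osteocyte markers had 1 higher and 2 lower of 5, GC-adjusted 1 and 2. Of 10 muscle markers 2 passed the low-count filter, and of 8 endothelial markers 0 passed it. All 12 preosteoblast and osteoblast markers were detected, at a summed level of 108000 to 113000 CPM in isolated and 60300 to 74200 CPM in co-cultured libraries. Much of that sum lies in Col1a1, whose fall was not called after GC adjustment, and in Col1a2, which was called lower in both fits. Of the 12 markers 2 were higher and 7 lower, GC-adjusted 2 and 2, with medians of -0.49 and 0.04.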
